A study of Drosophila melanogaster with 4 samples.

Results

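Arm 2L, the left arm of Drosophila melanogaster chromosome 2, carried 641 of the 4389 Abd-B-GFP peaks in the deposited list. All peaks that the list places on 2L were taken, whatever their score or width. They came from chromatin immunoprecipitation sequencing (ChIP-seq) of third-instar larvae, with 2 libraries of ChIP DNA and 2 of input DNA. All 4 libraries are labelled with strain Abd-B-GFP, genotype w; PBac{y[+]-attP-3B}VK00037 and unknown sex, so both groups carry the same transgene. That transgene is a genomic copy of the Abd-B coding region in which GFP replaces the stop codon, and the ChIP libraries were precipitated with the rabbit polyclonal GFP antibody ab290. The protocol text names a different stock, y; bw cn sp, and the sample characteristics were followed. The tissue was whole wandering larvae, so a peak averages over all cells. A library from larvae without the tag was not analysed here. The 4 libraries were reduced to 1 list, so no value below has a replicate error and no library can be left out.

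Abd-B is the most posterior Hox gene of the bithorax complex. Its homeodomain protein gives the last abdominal segments and the genitalia their identity by regulating other genes through enhancers. Hox proteins commonly bind clusters of sites spread over the introns and flanks of developmental regulators. Such loci on 2L include the BMP ligand gene dpp, the Wnt gene wg, the spalt genes and several nuclear receptor and zinc finger genes.

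Peaks on 2L were mostly narrow and of low score, with a tail of much higher scores. Scores are those the caller gave each peak, deposited by the authors without a definition. The median score was 15.39 (95% interval 14.49 to 16.25, from the ranks of the 641 peaks). The middle 50% of peaks lay between 11.10 and 29.70, and the extremes were 6.43 and 233.41. The median width was 400 bp (377 to 429 bp). The quartiles were 285 and 657 bp, the narrowest peak had 201 bp and the widest had 2424 bp. The peaks covered 334.4 kb, or 1.46% of the 22.9 Mb between the first peak, which starts at 66623, and the last, which ends at 22962112. All coordinates are on FlyBase release 5 and counted from 1. A score above 100 was reached by 15 peaks on 2L (2.34%, exact Clopper-Pearson 95% interval 1.32 to 3.83%), beside 3.19% of all peaks in the list. A width of 1000 bp or more was reached by 57 (8.89%, 6.80 to 11.4%), beside 8.91% of all peaks. Both shares lay near those of the whole list. That list includes 2L itself and peaks outside the major arms, so its shares are not those of the other arms.

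Peaks were spread unevenly along the arm, with more per Mb at the distal end, near the telomere, than in the rest. In the distal 8 Mb there were 280 peaks, or 35.0 per Mb (exact Poisson 95% interval 31.0 to 39.3). The next 7 Mb held 186 peaks, or 26.6 per Mb (22.9 to 30.7), and the 7 Mb after that held 156, or 22.3 per Mb (18.9 to 26.1). The share of sequence covered by peaks was 1.91% in the distal stretch, 1.32% in the middle one and 1.12% in the proximal one. These boundaries were drawn after the counts had been seen, and the intervals take peaks as independent although they are grouped. The decline was not steady: the distal stretch included the bin from 4 to 5 Mb with 19 peaks, and the middle one that from 14 to 15 Mb with 38. Within the last stretch the bins from 15 to 18 Mb held 15, 20 and 5 peaks. Those from 18 to 22 Mb held 29, 33, 25 and 29. The last bin, beyond 22 Mb, held 19 peaks up to 22962112 and was left out of the stretches. The first bin, where peaks start at 66623, was kept. No test between the stretches was made.

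**Figure D1:**
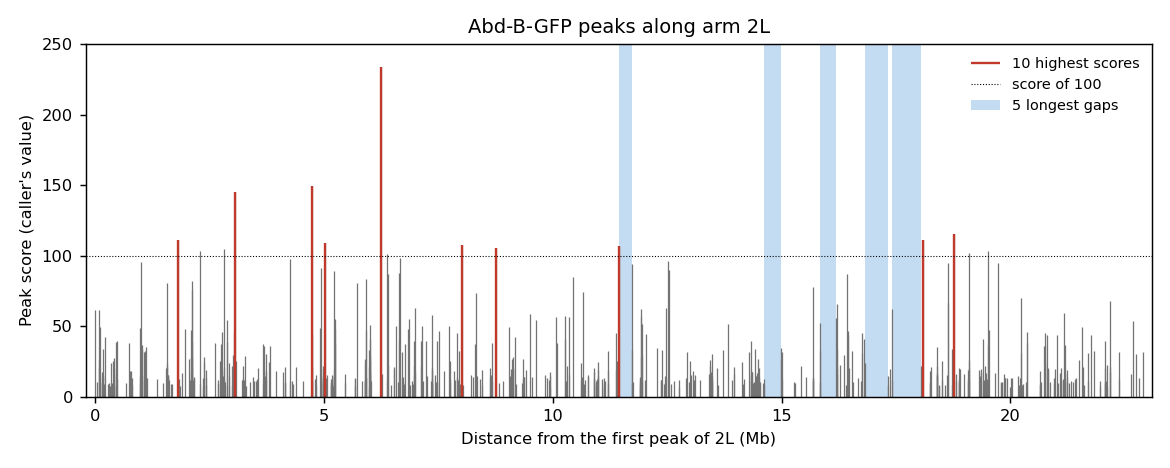
Scores of the 641 peaks (vertical lines, caller's own value) against their distance from the first peak of 2L in Mb, with the 10 highest scores in red, a dotted line at a score of 100 and the 5 longest stretches without a peak shaded. The highest peak, at 233.41, stands alone above 150, and 4 of the 5 shaded stretches lie beyond 14 Mb.

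Bins of 1 Mb showed how uneven this was. The 22 bins before the last held 28.3 ± 9.54 peaks (SD over bins, which are not replicates), with a median of 29. The densest ran from 5 to 6 Mb and held 46 peaks that covered 2.72% of it. Next came the bin from 2 to 3 Mb, with 44 peaks and 2.52% covered. The emptiest was the bin from 17 to 18 Mb, with 5 peaks and 0.254% covered, followed by that from 15 to 16 Mb, with 15 peaks.

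The number of peaks in a bin and their median score did not always go together. The crowded bin from 5 to 6 Mb had a median score of 13.53, and the bin from 14 to 15 Mb, with 38 peaks, had 12.49, the lowest of all bins, with no score above 39.40. The second fullest bin, from 2 to 3 Mb, had a median of 18.50, the third highest, with 5 scores above 50. The fullest had 6 scores above 50 despite its low median. The 20 peaks between 16 and 17 Mb had a median of 30.42, the highest of the bins. Between 6 and 7 Mb the median was 22.34, and 8 of 33 peaks had scores above 50.

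**Figure D2:**
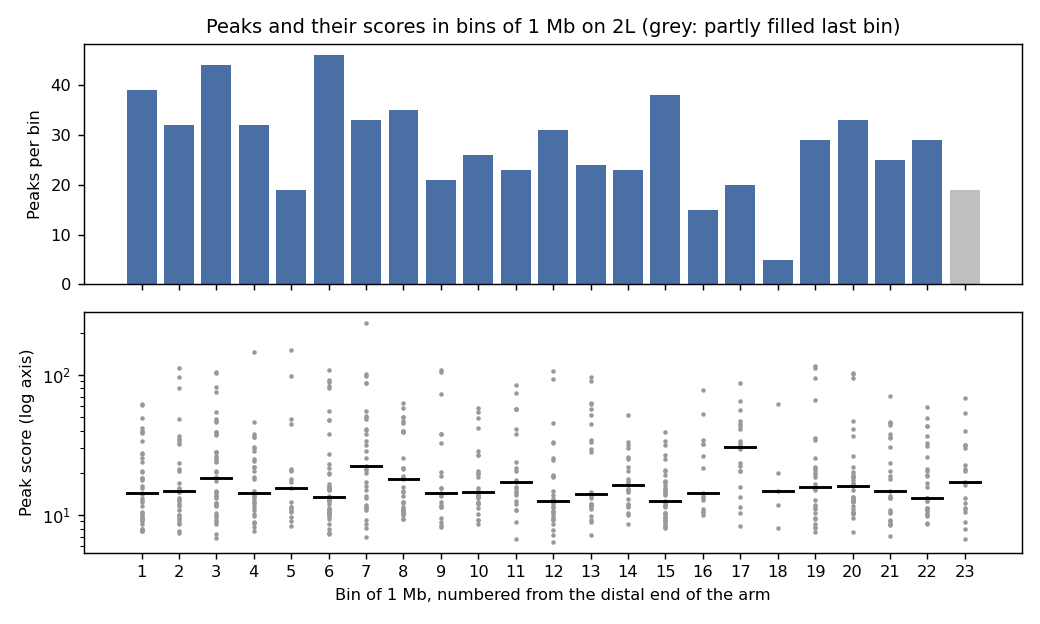
Number of peaks (upper panel) and peak scores on a log axis (lower panel, 1 dot per peak, black bar at the median) in bins of 1 Mb numbered from the distal end. Bin 6 is the fullest with 46 peaks, bin 18 the emptiest with 5, and bin 17 has the highest median score at 30.42. The grey bar is the last bin, in which the peaks end at 22962112.

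Stretches without a peak took up much of the arm. Gaps longer than 100 kb numbered 63 of 640 (9.84%), and together they made up 11.1 Mb, or 48.5% of the span. The longest, 632 kb, ran from 17474100 to 18106064, and the second, 495 kb, from 16889112 to 17383668. Between these 2 gaps lay an island with all 5 peaks of the emptiest bin. By its place on the fly map as recalled to the nearest 10 kb, the neural cadherin gene CadN lies inside the longest gap. The other 3 of the 5 longest were 368 kb from 14689340 to 15057024, 343 kb from 15914097 to 16256973 and 282 kb from 11517125 to 11799121. Peaks beside these 5 gaps varied in score. The longest gap lay between scores of 11.75 and 22.10, and that of 343 kb between 32.14 and 55.94. The gap of 282 kb begins beside a peak with a score of 106.54, while on its other side the nearest peak has 9.42.

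At the other extreme, peaks often stood close together. The median gap was 14089 bp (95% interval 11239 to 16750 bp), but 94 gaps (14.7%) were under 1 kb and 202 (31.6%) under 5 kb. A neighbour within 1 kb was found for 163 peaks (25.4%, exact 95% interval 22.1 to 29.0%), beside 30.9% of all peaks in the list. This difference was not tested. The interval takes peaks as independent, although nearness is mutual, so it is likely too narrow. The whole list also includes the peaks outside the major arms. The smallest gaps were 53 bp and 54 bp. Peaks so close could differ widely in score, as where the peak at 4332704 to 4334504 with a score of 97.40 adjoined one of 11.34 at 4334559 to 4334918. They could also be alike, as in a pair of 8.81 and 8.78 that stood 68 bp apart. How the caller was set to join or part neighbouring peaks is not stated.

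The highest score, 233.41, belonged to a peak of 1098 bp at 6323731 to 6324828, 14.1 kb from its nearest neighbour. It was followed by scores of 149.55 at 4811355 to 4812085, 144.97 at 3131569 to 3132168, 115.06 at 18838955 to 18839783 and 111.21 at 18150938 to 18151906. The other 5 of the top 10 were the peaks at 1884610 to 1885450 (111.17), 5092903 to 5093633 (109.06), 8083327 to 8084996 (107.89), 11516289 to 11517124 (106.54) and 8825149 to 8826038 (105.16). Of these 10, 8 had no other peak within 10 kb, and the last of them was 71.6 kb from its neighbour. Among all 15 peaks above 100 this held for 9 (exact 95% interval 32.3 to 83.7%), beside 34.5% of the 641 peaks, and 4 of the 15 had a neighbour within 5 kb. The exceptions in the top 10 were the second, which had a neighbour 194 bp away, and the peak at 5092903, with one at 8275 bp. None of the 10 lay at a developmental locus of the list used below, beside 15.4% of the 641 peaks. With so few peaks this difference was not tested.

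The top 10 by width and by score shared 0 peaks, although some came close. The peak at 19574929 was 3rd by width and 13th by score, and that at 8083327 was 8th by score and 12th by width. The widest, 2424 bp at 5799436 to 5801859, scored 80.73, and its nearest neighbour was 49.4 kb away. Next were 2285 bp at 11806046 to 11808330 (score 93.75) and 2217 bp at 19574929 to 19577145 (103.14). A wide peak could be of moderate score, as at 22429442 to 22431285, where 1844 bp went with a score of 31.82, only the 149th highest on the arm. The remaining 6 were 1790 to 1964 bp wide with scores from 47.61 to 97.40: 12003140 to 12005103, 10735816 to 10737737, 2196468 to 2198366, 5324867 to 5326675, 4332704 to 4334504 and 5997571 to 5999360. Over all 641 peaks, stronger peaks were wider (Spearman rho = 0.796, a description across peaks, which share libraries and a caller). Peaks of the lowest score class (6.43 to 10.42, 129 peaks) had a median width of 255 bp, and those of the highest (35.22 and above, 128 peaks) had 825.5 bp.

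**Figure D3:**
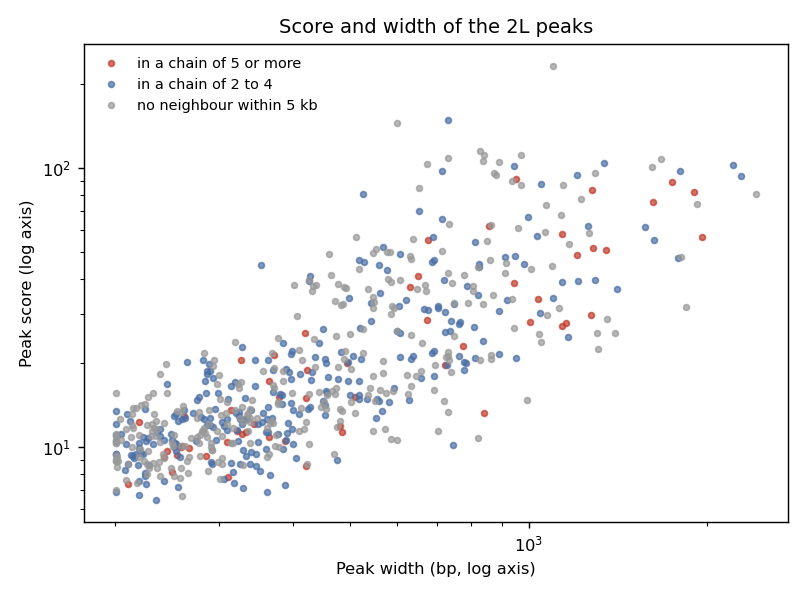
Score against width of the 641 peaks on log axes, coloured by the number of peaks linked by gaps of at most 5 kb. Over all peaks rho was 0.796, and the peak of 233.41 lies among those without a neighbour within 5 kb.

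Median scores were close in the 3 classes of peaks with a neighbour under 50 kb away and higher at 50 kb or more, and no test was made. Peaks with a neighbour under 1 kb away had a median score of 15.39 (95% interval 14.22 to 18.71, n = 163), and those with the nearest at 1 to 5 kb had 14.82 (12.70 to 17.68, n = 162). The median was 15.22 (13.80 to 16.25, n = 280) at 5 to 50 kb and 18.16 (13.29 to 31.65, n = 36) at 50 kb or more. All 4 intervals overlap, but they take peaks as independent although close neighbours come in groups. Their overlap does not show that the classes are alike. Scores above 50 made up 10.4%, 8.64%, 10.4% and 16.7% of the peaks in these classes, and the exact interval of the last, 6.37 to 32.8%, covers the other 3 shares.

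In windows of 50 kb, 187 of 459 (40.7%) were empty and 30 (6.54%) held 5 peaks or more. Those 30 held 185 peaks, 28.9% of the arm's total. These window counts were not set beside shares over the whole list. The fullest, from 5250001 to 5300000, held 10 peaks with scores from 7.89 to 89.27 and took in the last 3 peaks of tkv and the first 7 of vri. Another 2 windows held 9: from 2150001 to 2200000, with a median score of 27.99 and 13.0% of its sequence covered, and from 5950001 to 6000000, with a median of 13.28 and 14.5% covered. Windows with 8 peaks ran from 200001 to 250000 (scores 7.91 to 33.70) and from 6050001 to 6100000 (15.11 to 51.03, with Kr-h1). The longest run of neighbouring windows with 5 or more peaks was the 4 windows from 14400001 to 14600000, with 26 peaks. It includes the noc locus, and its scores reached no more than 39.40.

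Without a grid, peaks were linked into chains wherever the gap was at most 5 kb. By this measure 316 peaks (49.3%, exact 95% interval 45.4 to 53.2%) were alone. Of the chains, 79 were pairs, 29 were triplets and 6 had 4 peaks. The interval takes peaks as independent, although whether a peak is alone depends on its neighbours. These chain counts were not set beside shares over the whole list. The 9 chains of 5 or more held 56 peaks. The largest lay at vri and is described with that gene. The next, at 5971506 to 5987182, had 7 peaks over 15.7 kb, whose scores ran in order along the arm 11.90, 11.13, 10.53, 27.11, 23.01, 13.28 and 83.49. Its strongest peak was thus the most proximal one.

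Other chains differed in how their scores were shared out. At 12003140 to 12013872, 6 peaks covered 63.9% of 10.7 kb, with scores of 56.70, 27.95, 62.16, 29.70, 51.77 and 11.45, so 3 of them exceeded 50. At 2193446 to 2203601, 5 peaks covered 57.1% of 10.2 kb with scores of 20.46, 82.25, 38.86, 28.19 and 75.89. This chain began 14.8 kb beyond the last peak at aop. In both, peaks took up most of the stretch and strong ones stood at more than 1 place.

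In other chains 1 or 2 peaks stood above the rest. At 4996935 to 5009937 the scores of the 6 peaks were 48.71, 12.89, 91.58, 13.57, 9.39 and 19.68, so 2 were high. At 7418338 to 7427547 the 6 scores were 11.34, 12.31, 21.35, 18.92, 9.93 and 57.92, and at 14482991 to 14492958, the noc chain, the 5 were 9.18, 9.67, 33.93, 8.16 and 10.40, so 1 was high in each. A uniformly weak chain lay at 11021303 to 11031026, where 5 peaks had scores from 7.78 to 12.07 and covered 17.3% of 9.72 kb.

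**Figure D4:**
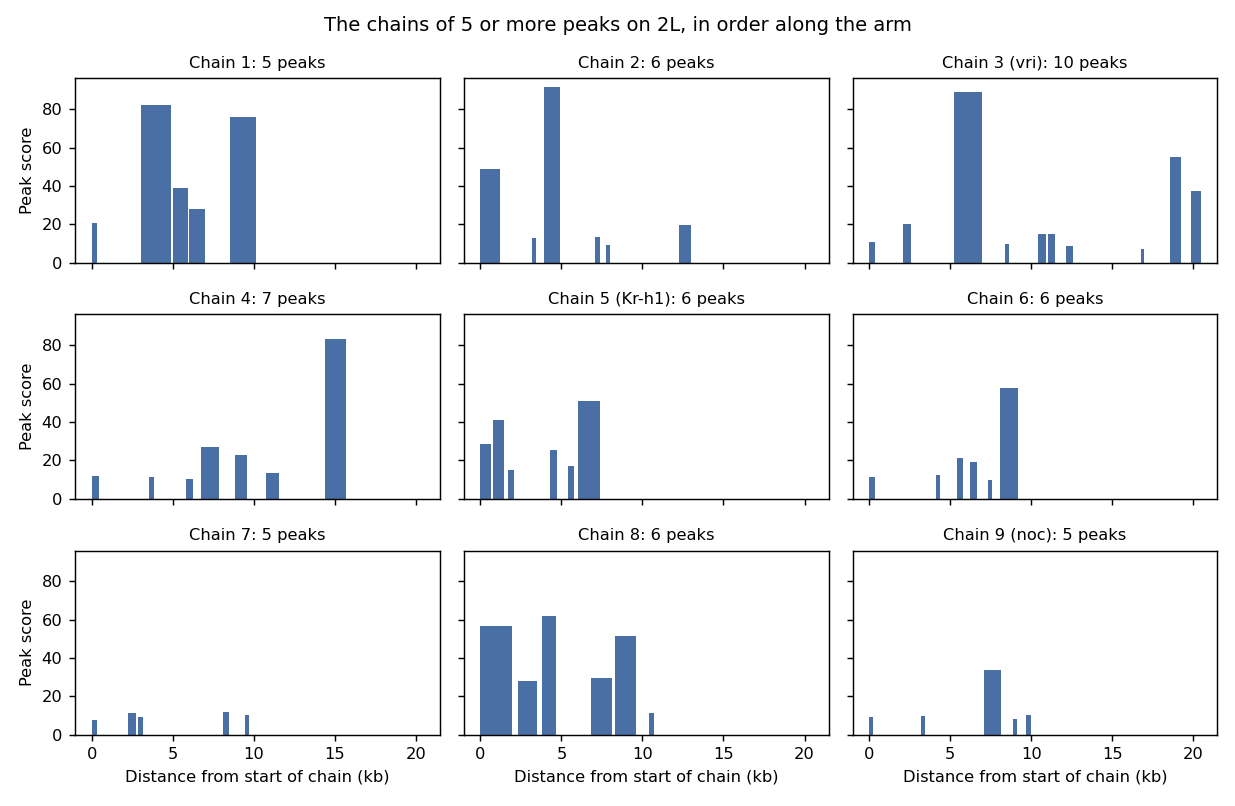
The 9 chains of 5 or more peaks, 1 panel each in order along the arm. Bars are peaks drawn to their width, placed by distance from the start of the chain in kb, with the score as height. Chain 8 has 3 peaks above 50, chain 7 has 0, and in chain 4 the peak of 83.49 stands at the proximal end.

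Known developmental loci were then examined through a list of 37 genes on 2L. Their places on release 5 were written from general knowledge of the fly map and rounded to 10 kb. No release 5 annotation was used here, so exons and introns are not distinguished. A peak is said to be at a locus when its midpoint lay in the rounded span or within 10 kb of it. A peak in reach of more than 1 locus was counted only at the nearest. A count of 0 thus need not mean that no peak was in reach. At 30 of the 37 loci there was at least 1 peak. Of the 459 windows of 50 kb along the arm, 187 (40.7%) were empty, so most stretches of that size also held a peak. The windows were not matched to the loci in length. Together the 37 loci held 99 peaks (15.4% of the 641, exact 95% interval 12.7 to 18.5%), in stretches that made up 8.47% of the span. These genes are known regulators picked by hand, and the share was not tested against other genes. The median score was 14.55 (95% interval 11.95 to 15.91) at the loci and 15.59 (14.50 to 17.17) for the 542 other peaks. These intervals take peaks as independent, although many peaks at the loci come in groups. Of the 15 peaks above 100, 0 were at a listed locus, beside 15.4% of all 641, and with so few peaks this was not tested.

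Among genes of hormone response and timing, vri had the most peaks of the list. It encodes a bZIP repressor of the circadian clock. Its 10 peaks formed the chain at 5286652 to 5307121, 20.5 kb long, with scores along the arm of 10.87, 19.98, 89.27, 9.96, 15.05, 15.04, 8.57, 7.37, 55.27 and 37.59. The strongest, 1748 bp wide at 5291863 to 5293610, and the pair at the proximal end stood out from 7 weaker ones. At Kr-h1, whose zinc finger protein mediates the juvenile hormone response, there were 7 peaks. The first 6 formed a chain over 7.40 kb at 6081295 to 6088696 with scores of 28.58, 41.22, 15.11, 25.68, 17.27 and 51.03, and the seventh, at 6109720 to 6110128, had 11.37. Every peak of that chain but 1 was above the arm's median. Hr39, which encodes an orphan nuclear receptor, had 3 peaks, with scores of 59.24 at 21237274 to 21238339, 36.74 at 21250615 to 21251149 and 15.86 at 21263275 to 21263740. At chinmo, a BTB zinc finger gene of temporal identity, 9 peaks were spread over 60.4 kb, and 1 of them, at 1644303 to 1644828, reached 80.55 while the other 8 had 11.61 to 23.61.

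Homeodomain, POU and other identity genes had fewer but in part strong peaks. The POU gene nub, needed for wing formation, had 2, with scores of 96.10 at 12586862 to 12587734 and 90.03 at 12617752 to 12618690. These were the highest 2 scores at any listed locus. Its neighbour and paralogue pdm2 had 2 weak peaks, of 8.91 and 10.96. At dac, which encodes a nuclear factor of leg and eye development, a peak of 1142 bp at 16485621 to 16486762 had a score of 87.10 and a second peak had 8.39. The trunk identity gene tsh, a zinc finger homeotic gene, had 1 peak of 43.51 at 21828127 to 21829136. At the homeobox gene al and the LIM homeodomain gene tup there were 2 peaks each, with scores of 7.88 to 9.66 and 11.07 to 15.91. The caudal gene cad, a homeobox gene of the posterior end, had 0.

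Zinc finger and other transcription factor genes varied widely. At noc there were 9 peaks over 36.3 kb, of which only that at 14490088 to 14491124, with a score of 33.93, was above 15. At aop, an ETS repressor of the Ras pathway, 6 peaks had scores from 9.64 to 47.03, and the strongest lay at 2175326 to 2175843. The gene ush, for a cofactor of GATA factors, had 4 peaks, with 38.85 at 523046 to 523786 and 39.68 at 559400 to 560005 as the high ones. At ab, a BTB zinc finger gene, 4 peaks reached 32.70. The glial fate gene gcm had a single peak of 58.36, 1266 bp wide, at 9568213 to 9569478. The eye gene eya had 1 of 8.65, and dl, the Rel factor of the dorsoventral axis, had 1 of 19.92. Among segmentation and Snail family genes, odd, slp1 and esg had 1 each (12.70, 18.19 and 10.57), and slp2 and sna had 0. At the spalt genes, salm had 2 peaks, of 45.53 at 11445444 to 11446424 and 19.09 at 11447474 to 11447862, and salr had 0.

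Signalling genes mostly had weak peaks. The BMP ligand gene dpp had 4, with scores of 13.60, 6.90, 24.88 and 28.21, and the first 2 of them were 88 bp apart at 2427971 to 2428599. Its receptor gene tkv had 7 peaks over 44.1 kb, none above 15.59, just 24.1 kb short of the vri chain. Among the Wnt ligand genes, wg had 1 peak of 39.58 at 7306787 to 7307211, Wnt6 had 1 of 14.57 and Wnt4 had 1 of 10.92. The Hedgehog transducer gene smo had 2, of 9.11 and 42.04.

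Genes of growth, polarity and adhesion completed the list. The TSC22 family gene bun had 6 peaks over 89.6 kb, with the strongest at either end of that stretch, 32.97 at 12457179 to 12457925 and 62.84 at 12545867 to 12546730, and scores of 9.24 to 14.49 between. The Hippo pathway gene ex had 3, of 23.80, 9.43 and 9.31, and the G1 cyclin gene CycE had 3, of 10.96, 13.63 and 13.15. At ds and CadN, both cadherin genes, and at the wing vein gene net there were 0.

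**Figure D5:**
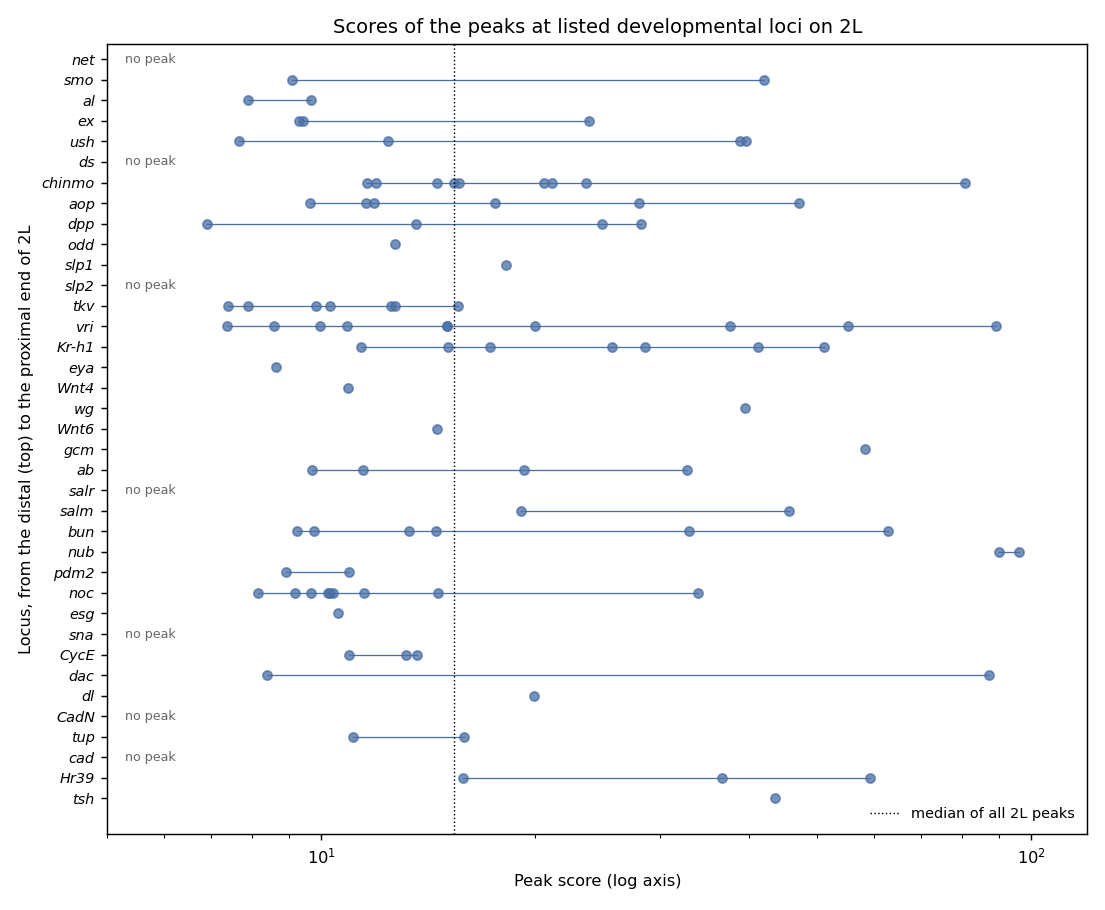
Scores (log axis) of the 99 peaks at the 37 listed loci, with 1 row per locus from the distal end at the top, a line joining the lowest and highest score and a dotted line at the median of all 2L peaks. Both nub peaks lie at 90 or above, all but 1 of the tkv peaks lie below the median, and 7 loci have none.

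For reference, 2L had 28.0 peaks per Mb of its span (exact Poisson 95% interval 25.9 to 30.3), beside 30.2 on X, 34.1 on 3L, 37.6 on 3R and 43.6 on 2R. Its median gap of 14089 bp stood beside medians of 8425 to 10104 bp on those 4 arms, and its longest gap of 632 kb beside 283 to 526 kb. The median scores of those arms were 14.19 to 16.98 and their median widths 396 to 476 bp. Differences between arms were not tested here.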

How the data were processed

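Abd-B-GFP ChIP-seq of third-instar larvae (2 ChIP and 2 input libraries) was deposited as 1 list of 4389 peaks. Per the file headers, coordinates are on FlyBase release 5 and the source is MACS. Per the submitters' processing notes, the tools were CASAVA (1.7.0.2, 1.7.0.3), MACS2 and BWA. The threshold, read filters and any pooling of libraries were not stated in these sources. Every peak carries 1 score that the authors deposited without a definition, so depth is unknown and intervals cover counting error only. Start and end are deposited positions. No column belongs to a single sample.

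From these, 2L peaks were counted in bins of 1 Mb and windows of 50 kb by midpoint, and in chains with gaps of at most 5 kb, with Python 3.11.15, pandas 2.3.3 and SciPy 1.17.1. The functions were tested on simulated data. Intervals are exact Clopper-Pearson, exact Poisson or, for medians, binomial over ranks. No hypothesis test was made. The peaks named are the 10 highest scores and 10 widest, with the fullest windows, the 5 longest gaps and all chains of 5 or more (the rule asked for 7 or more). The members, the gene list and the rules were chosen with earlier results of these data known.

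Of 40 loci placed from general knowledge, 3 (drm, elB and Hr38) were left out because the recalled place did not overlap that of the gene in the RefSeq release 6 table, whose coordinates were otherwise not used. Sequences are not shown, since no release 5 genome was used here.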

Additional observations from a re-analysis of the deposited data

How the results depend on the processing

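The share of 2L in the list, its median score and the number of peaks at listed loci under other distances moved little: that share and that median stayed within their 95% interval, and that number within 1.5 times. The number of peaks after merging those less than 1 kb apart (547) and the crowded windows on a grid shifted by 25 kb (29) also stayed within 1.5 times. Keeping only peaks at or above the median score of the whole list left, by construction, 319 peaks, 13.9 per Mb, 5 windows of 50 kb with 5 or more peaks, a median gap of 36064 bp, a longest gap of 632927 bp, a median width of 637 bp and 43 peaks at loci (22 loci with a peak). Merging peaks less than 1 kb apart gave 23.9 regions per Mb, 13 such windows, 2 chains of 5 or more and a median gap of 19805 bp. Ending a chain at 2 kb gave 3 chains and at 10 kb 15, in place of 9. Windows of 20 kb, added after seeing the data, gave 9 in place of 30. With a distance of 0 kb or 25 kb, 27 or 34 of the 37 loci had a peak. No paired analysis was possible because only 1 list was made from the 4 libraries, which also means that no replicate could be left out. Rounded locus places limit assignments near their edges.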
